A study of Mus musculus with 4 samples.

Results

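The 10 genes described here (Fos, Fosb, Jun, Junb, Egr1, Nr4a1, Npas4, Ier2, Dusp1 and Atf3) are immediate early response genes. They were taken by name from the 32285 genes counted in the series, and each of the 10 was found once in the feature tables. The series holds single-cell RNA sequencing of pancreatic islets from male C57BL6/N mice. WT mice were wildtype littermates, and HH mice were homozygous for a Pax4 R200H knock-in, which stands for the human R192H variant. SCD mice ate standard chow and were 12 weeks old, and HFD mice were 16 weeks old after 4 weeks on a high fat diet, so age and diet cannot be told apart. Each of the 4 groups (WT SCD, HH SCD, WT HFD, HH HFD) was 1 library of islets pooled from 2 to 3 mice and dissociated with trypsin, so no group had a replicate, HH/WT and HFD/SCD ratios between single libraries are given without a test, and the intervals given for single libraries cover counting error only. The substitution itself cannot be read from gene counts, so the genotype of each library rests on its label.

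Immediate early genes are transcribed within minutes of a stimulus from transcription factors that are already present in the cell, and need no new protein first. Fos, Fosb, Jun and Junb encode subunits of the AP-1 transcription factor, a dimer of basic leucine zipper proteins. Atf3 is a related leucine zipper factor of the stress response, Egr1 is a zinc finger factor, Nr4a1 is an orphan nuclear receptor, Npas4 is a factor that is switched on by calcium entry in excitable cells, Ier2 encodes a nuclear protein of the early response, and Dusp1 encodes a phosphatase that inactivates MAP kinases. In beta cells, glucose, depolarisation, calcium and cyclic AMP are known to raise these genes, in part through the factor CREB at cyclic AMP response elements, and the genes are also known to rise while a tissue is being dissociated into single cells.

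The 4 libraries held between 4665 and 7123 barcodes, and 12404 cells of 22218 barcodes were used after the study's cell filter and removal of predicted doublets. In WT HFD 38.3% of barcodes passed the filter, against 61.6% to 67.8% in the other 3 libraries. Libraries shared between 21 and 29 of their barcodes with the others. Clusters were built without the 10 genes, other early response genes and heat shock genes, and were named from marker genes. Beta-like cells numbered 2008 in WT SCD and 1953 in HH SCD, against 1123 in WT HFD and 2755 in HH HFD, and their clusters had all 8 beta markers among their high genes. Levels are UMIs summed over the cells of a class in a library, divided by all UMIs of that class and scaled to 1000000 (CPM). The median depth of beta-like cells was 26340, 26136, 29785 and 24095 UMIs. The other classes with at least 20 cells in each library were alpha-like, delta-like, PP-like and endothelial-like cells. The endothelial-like class was small (127, 89, 146 and 192 cells) and shallow (median 5812 to 7127 UMIs), and it carried 7183 Gcg CPM in WT SCD and 4144 Ppy CPM in HH SCD, against 645 to 892 Gcg CPM and 274 to 387 Ppy CPM in the other libraries. The beta-like class was split by library: a cluster led by Dapl1 and holding Aldh1a3 among its leading genes had 1099 of its cells in HH HFD and 28 in WT HFD, and the largest cluster of each HFD library had 826 WT HFD and 1355 HH HFD cells.

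The genes sit on different chromosomes of GRCm38 for the most part. Fos lies at chr12:85473890-85477273 on the plus strand, Fosb at chr7:19302696-19310051 on the minus strand, Jun at chr4:95049034-95052222 on the minus strand, Junb at chr8:84974484-84978718 on the minus strand and Ier2 at chr8:84661331-84662852 on the minus strand. Nr4a1 lies at chr15:101254269-101274795 on the plus strand, Npas4 at chr19:4984355-4990316, Dusp1 at chr17:26505590-26562128 and Atf3 at chr1:191170296-191218039, these 3 on the minus strand. Promoter windows of RefSeq (GRCm38.p6, 250 bases before to 50 bases after a start) were matched for 8 of the 10 genes. The 250 bases before the start are shown for 4 genes that carry more than 1 copy of TGACG, the core of the cyclic AMP response element. Capitals mark TGACG on either strand (read as CGTCA on the opposite strand), its full form TGACGTCA, and TATAAA.
Fos, chr12:85473640-85473889, plus strand: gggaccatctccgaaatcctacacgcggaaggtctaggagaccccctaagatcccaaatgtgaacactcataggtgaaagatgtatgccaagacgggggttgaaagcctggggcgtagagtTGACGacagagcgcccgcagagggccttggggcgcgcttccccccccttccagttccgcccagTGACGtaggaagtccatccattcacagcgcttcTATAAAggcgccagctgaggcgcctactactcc
Nr4a1, chr15:101266596-101266845, plus strand: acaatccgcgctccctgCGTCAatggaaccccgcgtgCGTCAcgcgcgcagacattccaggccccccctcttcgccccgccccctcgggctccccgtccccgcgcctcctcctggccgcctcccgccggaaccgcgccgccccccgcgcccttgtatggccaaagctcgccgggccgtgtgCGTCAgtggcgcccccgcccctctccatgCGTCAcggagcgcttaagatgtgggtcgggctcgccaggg
Dusp1, chr17:26508473-26508722, minus strand: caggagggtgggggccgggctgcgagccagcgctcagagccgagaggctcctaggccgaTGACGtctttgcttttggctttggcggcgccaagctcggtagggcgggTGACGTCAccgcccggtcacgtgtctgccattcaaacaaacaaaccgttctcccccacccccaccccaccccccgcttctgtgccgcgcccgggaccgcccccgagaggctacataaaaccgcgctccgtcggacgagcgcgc
Npas4, chr19:4989972-4990221, minus strand: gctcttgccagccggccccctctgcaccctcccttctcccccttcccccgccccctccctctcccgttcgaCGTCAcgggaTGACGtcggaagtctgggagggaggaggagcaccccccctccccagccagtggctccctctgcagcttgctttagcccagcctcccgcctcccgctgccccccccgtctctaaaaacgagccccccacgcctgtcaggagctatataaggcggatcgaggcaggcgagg

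TGACG was found on either strand in 7 of the 8 windows (Jun was without it), and 20.8% of all 32851 windows of the table held it. In Fos the copies began 129 and 66 bases before the start, and the TATAAA began 33 bases before it. Nr4a1 had 4 copies. Dusp1 held the full TGACGTCA 143 bases before the start, which overlaps 2 of its TGACG copies, and 1.79% of all windows held this full form. TATAAA was found in 2 of the 8 windows (Fos and Junb), against 13.6% of all windows. The AP-1 site TGANTCA and the CArG box were found in 0 of the 8, against 7.81% and 1.63% of all windows, which says only that these letters are not within these windows.

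**Figure D1:**
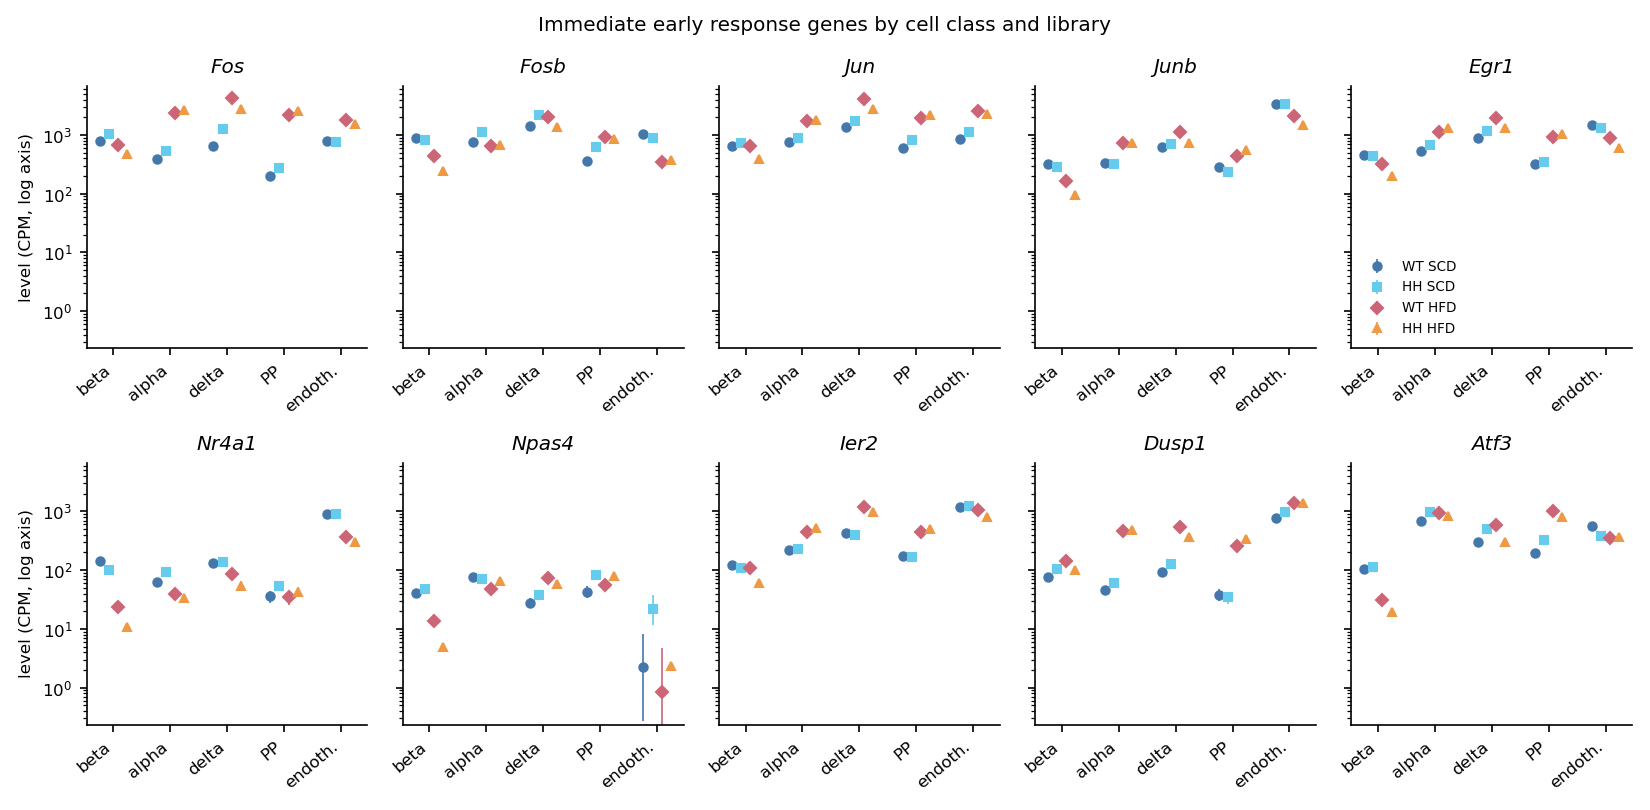
Level of each gene (CPM, log axis) in beta-like, alpha-like, delta-like, PP-like and endothelial-like cells of the 4 libraries, with 95% Poisson intervals of counting error. In the other endocrine classes the HFD libraries (diamonds and triangles) lie above the SCD libraries for Fos, Jun, Ier2 and Dusp1. In beta-like cells they lie below for Fos, Fosb, Junb, Egr1, Nr4a1, Npas4, Atf3 and, with WT HFD close to HH SCD, Ier2. Npas4 in endothelial-like cells of HH HFD had 0 counts and is drawn at the limit of 3 counts.

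In beta-like cells Fos, Fosb, Jun and Junb each had their lowest level in HH HFD. Fos was at 792 CPM in WT SCD and 1044 in HH SCD, against 674 in WT HFD and 474 in HH HFD, with both HFD libraries below both SCD libraries. Fosb was at 896, 826, 435 and 239 CPM in the same order, so that both HFD libraries lay below both SCD libraries. Jun, the main partner of Fos, was at 646, 738, 652 and 390 CPM, and HH HFD alone stood apart. Junb was at 324, 281, 164 and 94.4 CPM, with both HFD libraries below both SCD libraries. How many of all genes had such a separation of the diets was not counted, in beta-like cells or in the classes below.

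Nr4a1, Npas4 and Atf3 had larger differences between the diets than the AP-1 genes in the same beta-like cells. Nr4a1 was at 144 CPM in WT SCD and 99.02 in HH SCD, against 23.6 in WT HFD and 10.8 in HH HFD. Npas4 was at 41.5, 48.3, 13.9 and 5.01 CPM, which rests on 2243, 2510, 465 and 342 UMIs. Atf3 was at 104, 112, 31.6 and 19.6 CPM. For these 3 genes both HFD libraries lay below both SCD libraries, and HH HFD was the lowest. Egr1 was at 459, 440, 320 and 201 CPM and had the same order of diets. Ier2 was at 121, 110 and 108 CPM in WT SCD, HH SCD and WT HFD and at 61.2 CPM in HH HFD. Dusp1, the MAP kinase phosphatase, was the exception, with 77.7, 107, 141 and 101 CPM and its highest level in WT HFD.

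Across cell classes, compared within libraries, the 10 genes did not share a pattern. Class contrasts were fitted with edgeR's quasi-likelihood test on UMIs summed per library and class, with the library as a block, over 12043 genes and the 4 libraries, and a gene was called at a Benjamini-Hochberg adjusted p under 0.05. In alpha-like over beta-like cells 2 of the 10 were higher and 0 lower, where 27.6% of all genes tested were higher and 28.5% lower. The 2 were Atf3 (log2 fold 3.15 ± 0.47 SE, edgeR adjusted p = 5.92e-06) and Ier2 (1.11 ± 0.32, edgeR adjusted p = 0.0054). Atf3 in alpha-like cells was at 684, 970, 931 and 841 CPM in WT SCD, HH SCD, WT HFD and HH HFD, above the beta-like level in each library. In delta-like cells 5 were higher (Atf3, Ier2, Jun, Junb and Egr1, log2 folds 0.85 to 1.76) and 0 lower, against 28.2% and 27.7% of all genes. In PP-like cells 4 were higher (Atf3 by 2.87, Ier2 by 1.22, Npas4 by 1.18 and Jun by 0.62) and 0 lower, against 22.5% and 24.0% of all genes. Each fold is a mean over the 4 libraries, which were not alike. For these 4 genes log2 HFD/SCD was higher in PP-like than in beta-like cells by 3.70, 1.75, 2.39 and 1.79, as described below.

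In endothelial-like cells the genes went both ways. Over beta-like cells, Junb (log2 fold 2.55 ± 0.37 SE), Nr4a1 (2.40 ± 0.32), Ier2 (2.35 ± 0.33), Dusp1 (2.28 ± 0.41) and Atf3 (1.64 ± 0.46) were higher, and Npas4 (-3.55 ± 0.99) and Fosb (-0.89 ± 0.32) were lower, each past the threshold by edgeR. That is 5 higher and 2 lower of 10, beside 35.5% and 40.3% of all genes, so the share of the genes that was called was near that of all genes. Nr4a1 was at 917, 909, 373 and 299 CPM in endothelial-like cells of WT SCD, HH SCD, WT HFD and HH HFD. Npas4, in contrast, had 2, 13, 1 and 0 UMIs in them, a limit of 2.36 CPM for the count of 0, against 342 to 2510 UMIs in beta-like cells. In HH SCD 12 of the 13 UMIs lay in 1 cell, and the 2 cells with Npas4 held 2257 of the 2434 Ppy UMIs of that library's endothelial-like cells, where Ppy, the PP hormone gene, was at 4144 CPM against 274 to 387 CPM in the other libraries. At a fixed 3000 UMIs per cell, 0% to 1.12% of endothelial-like cells had an Npas4 UMI against 1.49% to 13.1% of beta-like cells (unthinned, 0% to 2.25% of cells at median depths of 5812 to 7127 UMIs and 9.26% to 57.6% at 24095 to 29785 UMIs). Against the mean of the 4 endocrine classes, Nr4a1 (2.67), Dusp1 (2.32), Junb (2.01) and Ier2 (1.33) were higher and Npas4 (-4.07) and Fosb (-1.06) lower on the log2 scale, 4 and 2 of 10 beside 35.6% and 39.9% of all genes; endothelial-like cells were the only non-endocrine class in this fit.

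**Figure D2:**
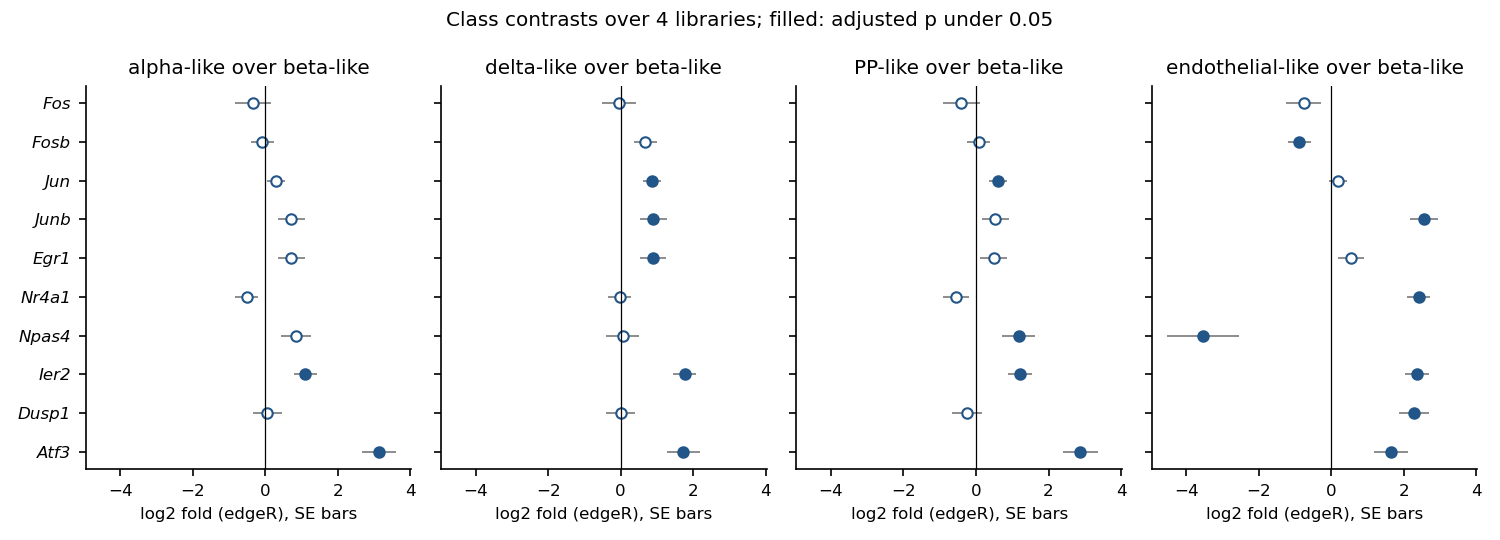
Log2 fold (horizontal axis) of each gene in alpha-like, delta-like, PP-like and endothelial-like over beta-like cells from edgeR, with SE bars over 4 libraries; filled points had an adjusted p under 0.05. Atf3 and Ier2 are filled in all 4 panels, and Npas4 lies at -3.55 in the endothelial-like panel.

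These class contrasts rest on the scaling between classes and on the libraries used. The shares of all genes called under the other settings are not given here, so the counts below cannot be set against them. With sums scaled to the class total in place of TMM, the median of all genes moved to 0.58 (alpha-like), 0.96 (delta-like), 0.25 (PP-like) and 0.96 (endothelial-like) from values between -0.12 and 0.00, and 6, 8, 4 and 7 of the 10 genes were then higher and 0, 0, 0 and 1 lower. Fosb in endothelial-like cells changed sign with this scaling (0.15), as did Nr4a1 in delta-like cells (-0.02 with TMM and 0.92 without), while in that fit Npas4 was still lower in endothelial-like cells, and Atf3 and Ier2 were still higher in each of the 4 classes over beta-like cells. Leaving out 1 library also moved the counts: the alpha-like count of 2 became 5 without WT SCD and 4 without HH SCD, the delta-like count of 5 became 2 without WT HFD, the PP-like count of 4 became 2 without WT HFD or without HH HFD, and the endothelial-like count of 2 lower genes became 1 without HH SCD or without WT HFD.

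The HFD/SCD ratios of most of the genes lay below 0 in beta-like cells and above 0 in the other endocrine classes. In beta-like cells of WT mice, 6 of 10 genes were lower by at least 20% in HFD than in SCD (13.3% of all genes tested) and 1, Dusp1, was higher by at least 25% (6.49%). These are the same fold in either direction and are used for each ratio between libraries; a gene was tested where it had a mean of 10 CPM and 100 UMIs. In HH mice 9 of 10 were lower (18.0%) and 0 higher (7.22%). The median log2 HFD/SCD of the 10 genes was -0.75 in WT and -1.36 in HH, against -0.04 and -0.07 for all genes tested. The beta-like cells of the diets lay largely in different clusters: 1 cluster held 1299 and 824 cells of WT SCD and HH SCD against 10 and 3 of WT HFD and HH HFD, and another held 90 and 167 against 826 and 1355. Within the second of these the median log2 HFD/SCD was -0.11 in WT, with 5 of 10 genes below 0, and -0.49 in HH, with 8 of 10 below 0. There Nr4a1 (-2.25 in WT and -2.58 in HH), Atf3 (-1.52 and -1.65), Npas4 (-0.64 and -1.32), Fosb (-0.36 and -0.85) and Junb (-0.28 and -0.67) were lower in HFD in both genotypes. Dusp1 (1.60 and 1.19) and Ier2 (0.51 and 0.19) were higher in both. Fos (0.41 and -0.31), Jun (0.70 and -0.15) and Egr1 (0.05 and -0.18) had opposite signs in WT and HH, and the counting interval of Egr1 in WT held 0. In that cluster 4 of 10 genes in WT were lower by 20% or more (8.16% of all genes tested there) and 4 higher by 25% or more (27.8%), and in HH 5 were lower (6.92%) and 1 higher (24.3%). The other beta-like clusters did not share a median in WT: it was -0.35 in 1 with 446 WT SCD and 126 WT HFD cells, -0.04 in 1 with 132 and 94 cells and -1.05 in 1 with 38 and 39 cells. In the cluster at -0.04, 5 of 10 genes had intervals above 0, with Fos at 1.38 and Dusp1 at 1.90, and 5 had intervals below 0, with Nr4a1 at -1.83. Over all beta-like cells Nr4a1 had the lowest ratio in WT (-2.61, 95% counting interval -2.72 to -2.51) and Npas4 in HH (-3.27, -3.44 to -3.11).

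In alpha-like cells, which share the islet with the beta cells and secrete glucagon, 7 of 10 genes were higher by 25% or more in HFD in WT mice (11.9% of all genes tested) and 6 of 10 in HH mice (12.8%). In each genotype 2 of 10 were lower by 20% or more, Nr4a1 and Npas4 in WT (22.3% of all genes) and Nr4a1 and Fosb in HH (21.5%). Fos was at 394 and 538 CPM in WT SCD and HH SCD and at 2360 and 2647 CPM in WT HFD and HH HFD. Dusp1 was at 46.7 and 60.03 CPM in the SCD libraries and at 457 and 478 CPM in the HFD libraries. For both genes the SCD and HFD libraries did not overlap, and how many of all genes did the same was not counted. Junb (336, 325, 729 and 723 CPM) and Egr1 (542, 661, 1139 and 1331 CPM) were also higher in both HFD libraries, but Nr4a1 was lower (63.6, 91.8, 39.0 and 34.1 CPM), as were Fosb (770, 1121, 650 and 679 CPM) and Npas4 (76.2, 70.7, 47.7 and 65.8 CPM).

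Delta-like cells, the somatostatin cells, held more Jun than the other endocrine classes in each library. Fos was at 651 CPM in WT SCD and 1268 in HH SCD, against 4171 in WT HFD and 2736 in HH HFD, and Jun at 1372, 1754, 4098 and 2769 CPM. Ier2 was at 425 and 394 CPM in the SCD libraries and at 1185 and 985 CPM in the HFD libraries. In PP-like cells Fos was at 197, 276, 2166 and 2600 CPM and Atf3 at 199, 327, 997 and 797 CPM in the same order. In each case both HFD libraries lay above both SCD libraries. Nr4a1 again did not follow, with 134, 138, 86.1 and 54.6 CPM in delta-like and 35.7, 54.8, 34.2 and 42.8 CPM in PP-like cells.

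The difference between classes in HFD/SCD, which holds diet and age together, was tested in 1 edgeR fit. The fit had a term for the HFD libraries in each class beside beta-like cells, the library as a block and 2 libraries, 1 of each genotype, per diet. This test was added after the beta-like ratios had been seen, and it compares whole classes. Alpha-like as well as beta-like cells of the diets lay largely in different clusters (365, 428, 22 and 24 cells of WT SCD, HH SCD, WT HFD and HH HFD in 1 alpha-like cluster and 43, 51, 266 and 479 in the other), and the test was not run within clusters. All 10 genes had a higher log2 HFD/SCD in alpha-like than in beta-like cells at an edgeR adjusted p under 0.05, where 1.93% of all genes did. The same held for 10 of 10 in delta-like (0.614% of all genes) and 10 of 10 in PP-like cells (0.972%). In endothelial-like cells 4 of 10 did (Fos, Jun, Nr4a1 and Atf3, beside 2.42% of all genes) and 0 were lower. For Fos the difference in log2 HFD/SCD was 3.12 ± 0.24 (SE) in alpha-like, 2.45 ± 0.24 in delta-like, 3.84 ± 0.25 in PP-like and 1.57 ± 0.25 in endothelial-like cells. The smallest called difference in an endocrine class was that of Fosb in alpha-like cells (0.92 ± 0.25, edgeR adjusted p = 0.038), and for Nr4a1 it was 1.81 ± 0.27 in alpha-like cells, where its own log2 HFD/SCD was -0.71 in WT and -1.43 in HH, against -2.61 and -3.20 in beta-like cells.

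In data simulated with the fitted dispersions, the test found 41% of genes changed by 1 on the log2 scale and 83% of those changed by 2 for alpha-like cells. There 13.3% of its calls were false. The simulation used 1 mean per gene for all classes and libraries, so it lacked their real differences, and these shares may not hold for the real sums. DESeq2 called 8 of 10 genes in alpha-like and 9 of 10 in delta-like cells, and 9 of 10 were called in alpha-like cells at Leiden resolution 2 and with an ambient profile subtracted. With 1 library left out, 1 diet rests on 1 library, so only the median difference of the 10 genes is given. It ran from 1.45 to 2.33 in alpha-like, 1.55 to 1.79 in delta-like and 1.73 to 2.72 in PP-like cells. With all libraries it was 1.94, 1.68 and 2.29. Other measures also differed between the diets. The heat shock genes Hspa1a, Hspa1b and Dnajb1 had a higher log2 HFD/SCD in each of the other endocrine classes than in beta-like cells as well (3 of 8 listed heat shock genes in each, 0 lower), and the median mitochondrial share was lower in both HFD libraries than in both SCD libraries in each of the 5 classes (2.65% to 4.91% against 3.27% to 5.55%). Their part in the result was not tested. Of 45 other early response genes on a list, 44 were tested, and 21 were higher in alpha-like, 15 in delta-like and 17 in PP-like cells by the same test, with 0 lower. Klf4 (2.40 ± 0.17 in alpha-like), Egr4 (3.97 ± 0.36) and Zfp36 (1.94 ± 0.23) were among them. In endothelial-like cells 6 were higher (2.42% of all genes tested) and 11 lower. The shares of all genes lower by this test are not given here for any class, so the counts of lower genes cannot be set against them.

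**Figure D3:**
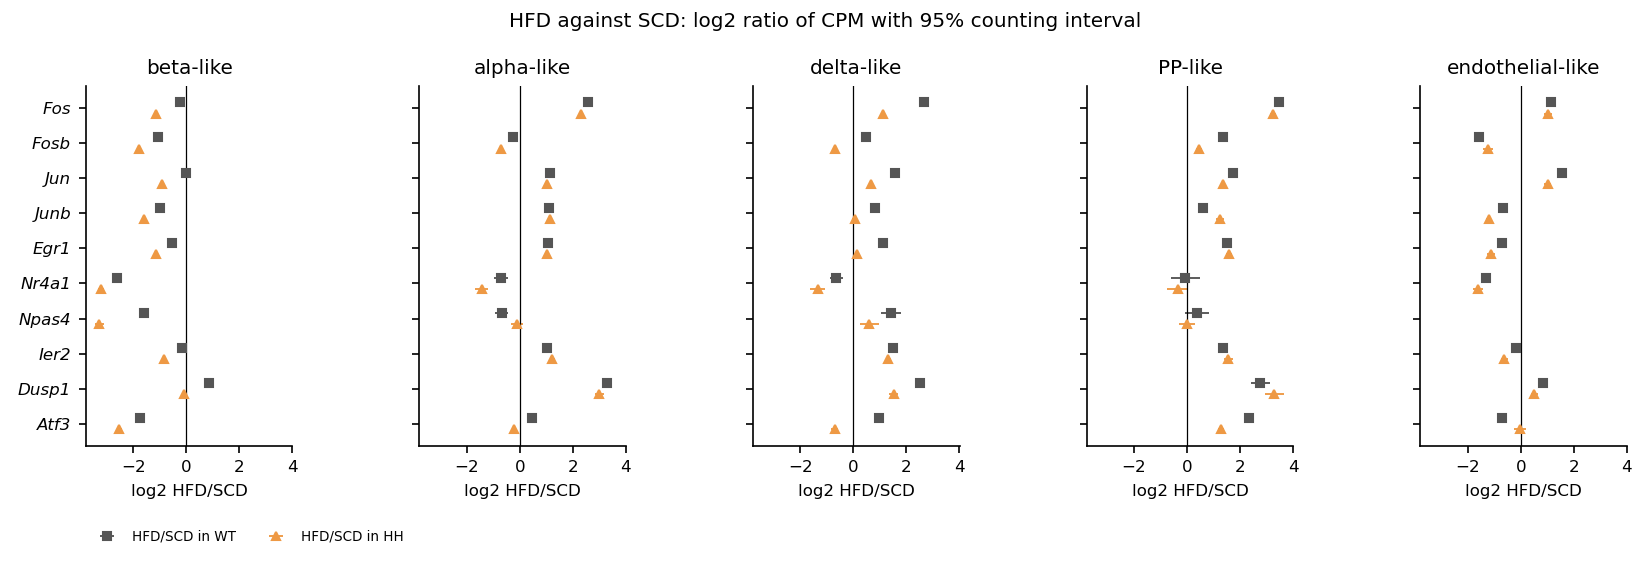
Log2 ratio of CPM in HFD over SCD (horizontal axis) for WT (squares) and HH (triangles) in 5 cell classes, with 95% counting intervals; Npas4 in endothelial-like cells, under the minimum level, is left out. In beta-like cells 8 of 10 genes lie below 0 in WT and 10 of 10 in HH, while Fos in PP-like cells lies at 3.46 and 3.24.

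The comparison of HH with WT gave no common direction in SCD and a lower level of each gene in HFD in beta-like cells. In SCD, 2 of 10 genes were higher by 25% or more in HH (Fos, log2 HH/WT 0.40, and Dusp1, 0.46), where 0.297% of all genes tested were, and 1 was lower (Nr4a1, -0.54), where 2.26% were. The median log2 HH/WT in SCD was 0.02 over the 10 genes and -0.09 over all genes tested. In HFD, 9 of the 10 genes passed the minimum level, and 9 of 9 were lower in HH by 20% or more (13.7% of all genes tested) and 0 higher (3.14%). Their median log2 HH/WT was -0.74, against -0.13 for all genes tested.

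The ratios in HFD ran from -0.48 for Dusp1 (95% counting interval -0.53 to -0.43) to -1.13 for Nr4a1 (-1.28 to -0.98). Fos was at -0.51, Fosb at -0.86, Jun at -0.74, Junb at -0.80, Egr1 at -0.67, Ier2 at -0.83 and Atf3 at -0.69. Npas4, under the minimum level with 342 and 465 UMIs, was at -1.47 (-1.67 to -1.26). Each of these intervals lay below 0, as did those of 3054 of the 5889 genes tested. Within the largest beta-like cluster of the HFD libraries, all 10 genes were again lower in HH HFD, with a median log2 HH/WT of -0.43 (lowest gene -0.81, highest gene -0.20). Each counting interval lay below 0 there too, and how many of all genes had such an interval in this cluster was not counted. There 6 of 10 genes were lower by 20% or more, beside 4.15% of all genes tested in that cluster, and 0 were higher (1.16%). In 3 other beta-like clusters the median log2 HH/WT was -0.35 (204 HH HFD and 94 WT HFD cells), -1.37 (1099 and 28 cells) and -0.74 (41 and 39 cells). In a further one, with 53 HH HFD and 126 WT HFD cells, 1 of the 10 lay below 0 and the median was 0.12.

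Several other measures moved with HH HFD. Its beta-like cells held 27.9 CPM of the summed endothelial markers, against 3.21 to 4.39 CPM in the other libraries, and 3427 CPM of the summed alpha markers, against 1672 to 1885 CPM. The summed PP markers were at 1121 CPM there, against 512 to 703 CPM, and the summed erythroid markers at 37.0 CPM (0.555, 1.37 and 2.53 CPM in WT SCD, HH SCD and WT HFD). The summed members were at 1598 CPM there, against 2565 CPM in WT HFD, 3607 CPM in WT SCD and 3804 CPM in HH SCD. Across beta-like cells thinned to the same depth, Pearson r of the summed members with the total UMIs of a cell was -0.29 in HH HFD (2738 cells) and -0.06, -0.03 and -0.03 in WT SCD, HH SCD and WT HFD. The part of these measures in the lower levels of HH HFD was not tested.

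In the other classes the HH/WT ratios differed from those of beta-like cells in places. In alpha-like cells 5 of 10 genes were higher by 25% or more in HH SCD (3.94% of all genes tested; Fosb at 0.54, Nr4a1 at 0.53 and Atf3 at 0.50), and in HFD 1 of 10 was (Npas4 at 0.47; 5.44% of all genes). In delta-like cells 7 of 10 were higher in HH SCD (4.82% of all genes tested), with Fos at 0.96 and Atf3 at 0.69, and 9 of 10 were lower in HH HFD (10.5%), with Atf3 at -0.96 and Fos at -0.61. The delta-like cells of HH HFD also held 5412 CPM of the summed alpha markers, against 912 to 945 CPM in the other libraries, and 51594 CPM of the summed beta markers, against 37673 to 44575 CPM, and the part of these in the lower levels was not tested. In PP-like cells the median ratio over the genes (log2 HH/WT) was 0.50 on SCD and 0.21 on HFD, against -0.02 and -0.10 for all genes tested. In endothelial-like cells the medians were -0.01 and -0.19, and the genes lowest in HH HFD were Egr1 (-0.54) and Junb (-0.52). A lower level of each gene in HH HFD was seen in beta-like and delta-like cells, and in alpha-like cells 0 of 10 genes was lower by 20%. In PP-like cells 1 of 10 was (539 of 3323 genes tested), and in endothelial-like cells 3 of 9 were (415 of 4193). In stromal-like cells 7 of 9 were (924 of 1897), and in macrophage-like cells 8 of 8 (830 of 1281). In these 4 classes 3, 0, 1 and 0 of the genes were higher by 25% or more (146, 489, 168 and 197 of all genes tested). The difference between classes in HH/WT was not tested.

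**Figure D4:**
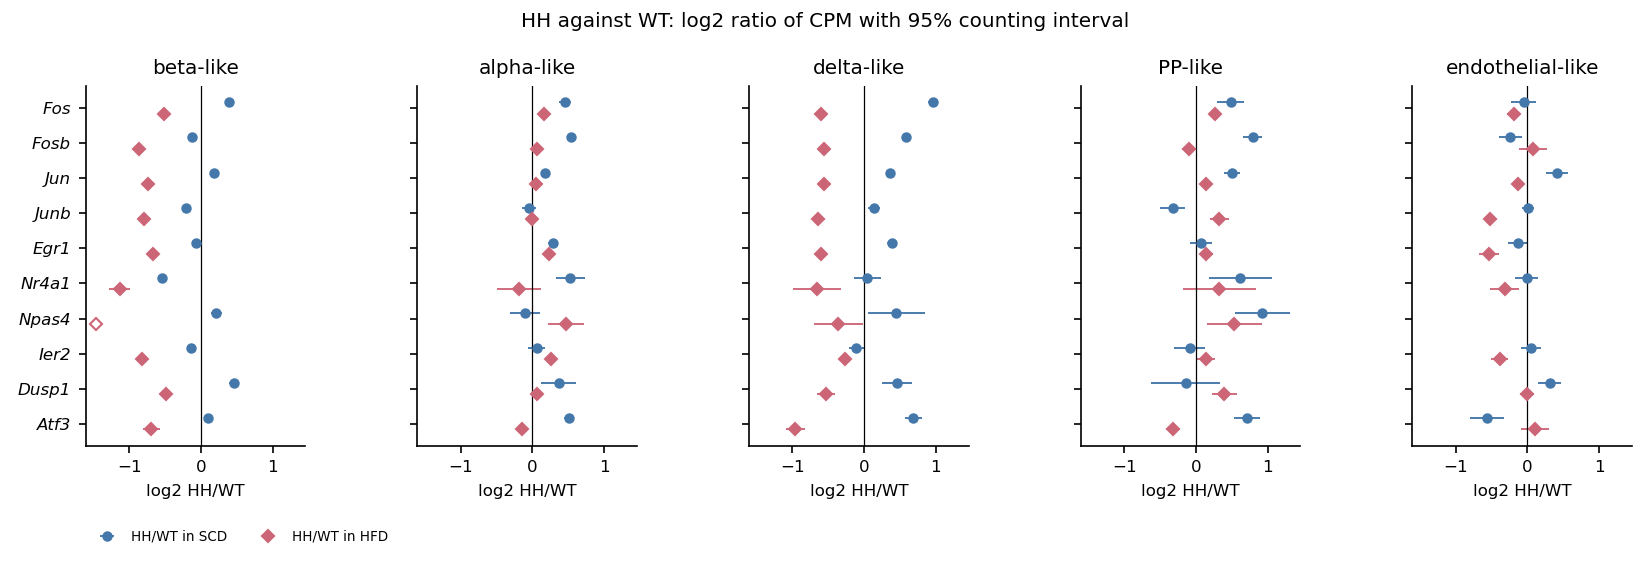
Log2 ratio of CPM in HH over WT (horizontal axis) in SCD (circles) and HFD (diamonds) for the 10 genes in 5 cell classes, with 95% counting intervals; an open diamond marks Npas4, under the minimum level in beta-like cells. In beta-like and delta-like cells the HFD points lie below 0 for all 10 genes, and in alpha-like and PP-like cells most lie near or above 0.

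Of the other early response genes in beta-like cells, 31 passed the minimum level in SCD, of which 11 were lower and 0 higher in HH past the same fold, and 23 passed in HFD, of which 17 were lower and 1 higher (medians -0.20 and -0.49); of all genes tested, 2.26% were lower and 0.297% higher in SCD and 13.7% lower and 3.14% higher in HFD. The list's lowest ratios in SCD belonged to Cebpd (26.1 CPM in WT and 11.1 CPM in HH, log2 HH/WT -1.23), Gadd45b (-0.90) and Arid5a (-0.60), and the highest those of Klf2 (0.17), Klf4 (0.16) and Klf6 (0.12). Cebpd encodes a leucine zipper factor of the C/EBP family, and Gadd45b a protein of the stress and growth arrest response. In HFD the lowest were Klf10 (-0.74), Gadd45b (-0.72) and Nfkbia (-0.66), which encodes an inhibitor of NF-kappaB, and the highest were Crem (25.4 CPM in HH and 19.96 CPM in WT, 0.35), Cebpd (0.24) and Klf4 (0.18). Crem encodes a cyclic AMP responsive factor. Cebpd thus had the lowest ratio of the list in SCD and lay above 0 in HFD. Among 8 heat shock genes, 1 of 7 was lower in HH SCD and 4 of 8 in HH HFD, with 0 higher in either, and the medians were -0.24 and -0.29.

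Within a library, beta-like cells with more of 1 gene tended to hold more of the others. Each cell was thinned to 10000 UMIs, which left out 2 to 17 cells per library. The median Pearson r of log2(UMIs + 1) over the 45 pairs of genes was 0.19 in WT SCD and 0.19 in HH SCD, against 0.14 in WT HFD and 0.21 in HH HFD, over 2002, 1951, 1117 and 2738 cells that share a library. By the mean over the libraries the AP-1 partners Fos and Jun had the highest r (mean 0.44, at 0.51, 0.47, 0.36 and 0.42), followed by Fos with Egr1 (mean 0.37), while in HH HFD Fosb with Jun was as high (0.42). Nr4a1 with Npas4 had the lowest (mean 0.06), close to 0 in 3 libraries and 0.18 in HH HFD. These are descriptions across cells of a library, with no test.

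Among the genes most like the summed members in beta-like cells, by the mean over the 4 libraries of Pearson r over 7650 genes, were Btg2 (0.45, 0.41 to 0.49 over libraries), Jund (0.38), C2cd4b (0.33), Txnip (0.27), Actb (0.25), Dnajb1 (0.24), Srsf7 (0.23), Rasd1 (0.23) and Zfp36 (0.23). The median over all 7650 genes was 0.02. Jund, Btg2 and Zfp36 are on the list of other early response genes, Dnajb1 encodes a heat shock co-chaperone, and Txnip encodes a thioredoxin-binding protein that rises with glucose. The r of Jund was 0.29 in both SCD libraries and 0.48 in both HFD libraries.

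At 10000 UMIs per cell, at least 3 of the 10 genes were found in 99.2% of beta-like cells of WT SCD (95% exact binomial interval 98.6 to 99.5), 99.6% of HH SCD (99.2 to 99.8), 98.6% of WT HFD (97.7 to 99.2) and 92.6% of HH HFD (91.5 to 93.5). At least 8 were found in 42.2%, 41.9%, 14.1% and 7.16% of the cells. For at least 3 genes the intervals of the other libraries overlapped in part and HH HFD lay below them, and for at least 8 genes the intervals of the SCD libraries overlapped and both HFD libraries lay below them. Fos had a UMI in 94.7%, 97.8%, 97.9% and 94.96% of cells, with medians of 6, 9, 6 and 4 UMIs per cell. Nr4a1 was found in 64.0%, 49.1%, 18.6% and 10.1% of cells and Npas4 in 29.3%, 33.7%, 11.8% and 4.46%. Free RNA can give UMIs in cells that do not express a gene. Npas4 UMIs were found in 2, 2, 1 and 0 endothelial-like cells, those of HH SCD being the cells with Ppy, and how much of any gene's level is free RNA was not tested.

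**Figure D5:**
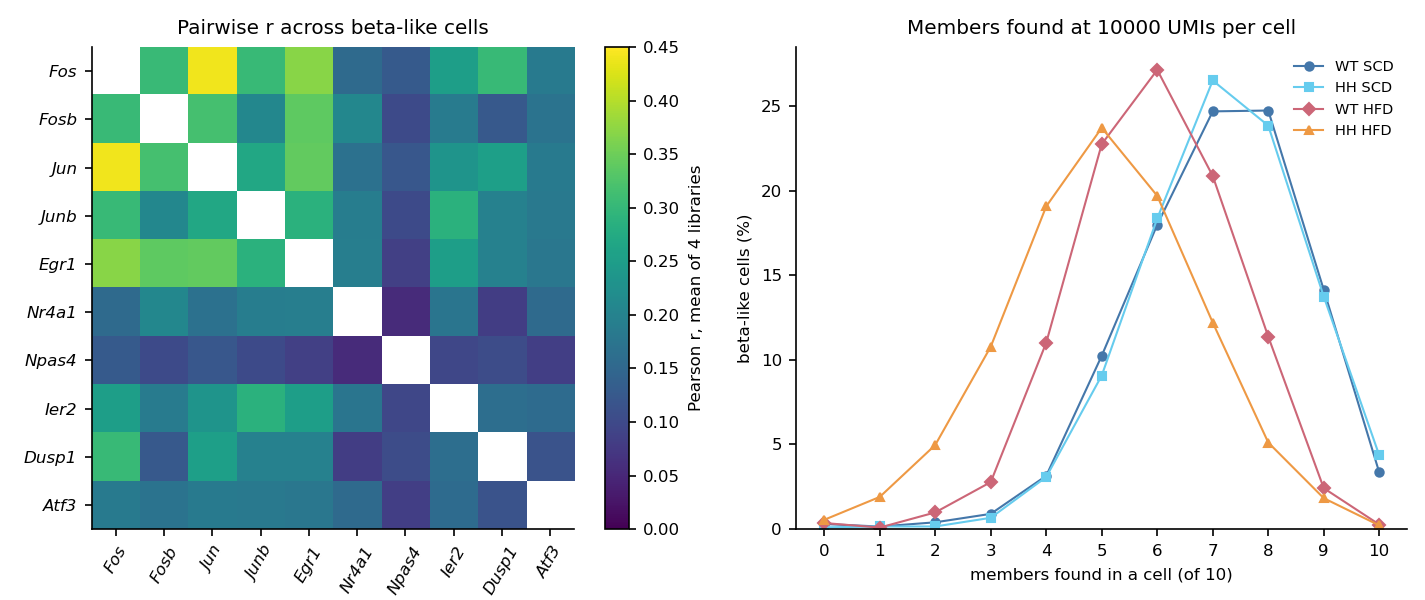
Left, mean over the 4 libraries of Pearson r across beta-like cells for each pair of the 10 genes (colour scale from 0 to 0.45); right, percent of beta-like cells (vertical axis) by the number of the 10 genes found in a cell thinned to 10000 UMIs. Fos with Jun is the brightest pair, and the HH HFD curve lies left of WT HFD, which lies left of both SCD curves.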

How the data were processed

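The authors deposited raw UMI counts of 10x 3′ libraries as gene-by-barcode matrices. Per the labels and file headers these came from Cell Ranger 6.0 (6.0.2 in the headers) on mm10. The members and gene lists were chosen with earlier results of these data known.

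Cells with under 10% mitochondrial UMIs, 3000 to 50000 UMIs and 2000 to 5000 genes were kept, and 348 predicted doublets (the top-scoring 0.8% per 1000 cells, Scrublet in scanpy 1.11.5) were removed. Clusters (3000 variable genes, 30 components, Leiden resolution 1) were built without mitochondrial genes and without 62 listed genes (the members, other early response genes and heat shock genes). They were named from at least 3 markers and 50% of a marker list, a share set after seeing the data.

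Counts were summed per library and class. Class contrasts used edgeR 4.0.16 (R 4.3.3) with Benjamini-Hochberg adjustment, checked on simulated data. Between single libraries, ratios of CPM carry exact conditional Poisson intervals at 95%, and a gene needed a mean of 10 CPM and 100 UMIs and counted as different when at least 25% higher or 20% lower. All members are named. Of the other early response genes, the 3 highest and 3 lowest ratios of HH over WT in each diet are named, and Klf4, Egr4 and Zfp36 in the diet test and the heat shock genes were named after their values were seen. Total UMIs per library were 68011082 to 104810105. UMIs are molecules, and the intervals cover counting error only. In the ranking of genes most like the summed members, 1 gene is not reported here.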

Additional observations from a re-analysis of the deposited data

Results flagged for a closer look

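The HFD/SCD ratio differed between a cell class and beta-like cells by the edgeR test of the difference itself (adjusted p under 0.05, 2 libraries per diet, log2 scale, higher in the other class). In alpha-like cells the differences were 3.12 for Fos, 0.92 for Fosb, 1.52 for Jun, 2.40 for Junb, 1.87 for Egr1, 1.81 for Nr4a1, 2.01 for Npas4, 1.62 for Ier2, 2.74 for Dusp1 and 2.23 for Atf3. In delta-like cells they were 2.45 for Fos, 1.18 for Fosb, 1.45 for Jun, 1.59 for Junb, 1.34 for Egr1, 1.81 for Nr4a1, 3.26 for Npas4, 1.77 for Ier2, 1.51 for Dusp1 and 2.14 for Atf3. In PP-like cells they were 3.84 for Fos, 2.07 for Fosb, 1.79 for Jun, 2.04 for Junb, 2.18 for Egr1, 2.53 for Nr4a1, 2.39 for Npas4, 1.75 for Ier2, 2.48 for Dusp1 and 3.70 for Atf3. In endothelial-like cells they were 1.57 for Fos, 1.57 for Jun, 1.29 for Nr4a1 and 1.52 for Atf3.

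The log2 HH/WT ratio had opposite signs in SCD and HFD for several genes, each past the fold used for ratios in both diets; with 1 library per group this difference was not tested. In beta-like cells Fos was at 0.40 in SCD and -0.51 in HFD, and Dusp1 at 0.46 and -0.48. In delta-like cells Fos was at 0.96 and -0.61, Fosb at 0.58 and -0.56, Jun at 0.35 and -0.57, and Egr1 at 0.39 and -0.60. Npas4 was at 0.45 and -0.36, Dusp1 at 0.46 and -0.53 and Atf3 at 0.69 and -0.96 in the same class. In PP-like cells Atf3 was at 0.72 and -0.32.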

How the results depend on the processing

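Of 120 recomputed counts of genes in the class contrasts, 99 were within 1.5 times the reported count. Without a filter on low sums, 5 genes were higher and 2 lower in alpha-like cells, 2 were lower in PP-like cells and 5 lower in endothelial-like over endocrine cells. DESeq2 gave 3 higher in delta-like cells, the looser cell filter 2, and subtraction of an ambient profile 2 in PP-like cells. With 1 library left out in turn, the count ran from 2 to 5 higher and 0 to 1 lower in alpha-like, 2 to 6 higher in delta-like, 2 to 4 higher and 0 to 2 lower in PP-like and 1 to 3 lower in endothelial-like cells. The median difference in the diet test then ran from 1.55 to 1.79 in delta-like cells, with 1 library left in 1 of the diets. Alternatives chosen after seeing the data were classes of 5 or more cells (3 higher in delta-like cells) and scaling without TMM (6 higher in alpha-like, 8 higher in delta-like, 1 lower in endothelial-like over beta-like and 1 lower over endocrine cells). Atf3 in non-endocrine over endocrine cells was at 0.67 with the looser filter, which brought stromal-like and macrophage-like cells into that contrast beside endothelial-like cells, so the values are not of the same contrast. Sign changed without TMM for Nr4a1 in delta-like (0.92) and Fosb in endothelial-like cells (0.15). The cause was not tested, and the shares of all genes called under these settings are not given here.

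In beta-like cells the median log2 HH/WT in SCD was 0.079 without insulin, Iapp and mitochondrial genes, 0.12 with median-of-ratios factors, 0.10 under 5% mitochondrial UMIs, 0.066 at Leiden resolution 2 and 0.13 in the largest shared cluster (chosen after seeing the data). In HFD it was -0.61 with median-of-ratios factors, -0.67 with equal weight for each cell, -0.86 with the looser filter, -0.95 under 5% mitochondrial UMIs and -0.40 in the shared cluster. HFD/SCD was -0.66 in WT with the looser filter and -1.30 in HH with median-of-ratios factors, and in the cluster shared best by the diets (chosen after seeing the data, a different cluster in each genotype) -0.35 in WT and -0.49 in HH. In HH 5 of 10 genes were then lower (6.92% of all genes tested in that cluster) and 1 higher (24.3%), in place of 9 and 0, Ier2 changed sign (0.19), and Dusp1 went from -0.07 to 1.19. Of the single-gene ratios recomputed under these settings, 132 stayed within their counting interval, 127 moved by more, and 1 (Ier2) reversed a called direction.

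The mean over libraries of the median pairwise r was 0.10 at 3000 UMIs and 0.23 at 20000 UMIs. The share of cells with several genes, in WT SCD, HH SCD, WT HFD and HH HFD, was 95.1%, 95.8%, 84.8% and 62.7% for at least 5 genes, 90.1%, 93.1%, 79.5% and 55.9% for at least 3 at 3000 UMIs and 99.5%, 99.9%, 99.4% and 97.6% at 20000 UMIs. For at least 2 genes it was 99.6% in both WT libraries and 97.6% in HH HFD.

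No paired analysis was possible because each group was 1 library and the labels give no replicate numbers; classes were paired within libraries by the library block, and a fit of diet with genotype as a second term was not run within a class. For the HH/WT and HFD/SCD ratios no library was left out, as 1 group would then be empty, and their intervals hold no spread between mice; and library, diet and age cannot be told apart.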

Other observations

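Stromal-like and macrophage-like cells were too few for the class test and are given as values (46, 16, 47 and 111 stromal-like and 18, 9, 48 and 52 macrophage-like cells in WT SCD, HH SCD, WT HFD and HH HFD). Stromal-like cells, which hold fibroblast and mural markers, had 870, 761, 109 and 138 CPM of Nr4a1 and 1189, 1078, 5191 and 2162 CPM of Jun. Both HFD libraries lay below both SCD libraries for Nr4a1 and above them for Jun. The summed beta markers in stromal-like cells were at 129404, 180659, 59811 and 230913 CPM in the same order. In macrophage-like cells Atf3 was at 402, 306, 2152 and 631 CPM and Dusp1 at 422, 367, 1423 and 448 CPM, highest in WT HFD. The macrophage-like class of WT HFD also held the least beta marker RNA (51610 CPM, against 209155 in WT SCD, 218277 in HH SCD and 431499 in HH HFD) and the most macrophage marker RNA (59536 CPM, against 28210, 33499 and 13233 CPM). The median log2 HH/WT of the genes tested there in HFD was -1.62, against -0.67 for all genes tested, and the part of the beta marker RNA in these values was not tested.

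Among beta-like cells at 10000 UMIs, Dusp1 was found in 44.8%, 55.5%, 63.2% and 56.6% of cells with a Fos UMI and in 18.7% (95% exact binomial interval 11.8 to 27.4), 21.4% (10.3 to 36.8), 29.2% (12.6 to 51.1) and 34.1% (26.2 to 42.6) of cells without, in WT SCD, HH SCD, WT HFD and HH HFD. The cells without a Fos UMI numbered 107, 42, 24 and 138.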
